A study of Drosophila melanogaster with 36 samples.

Results

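Whole embryos of Drosophila melanogaster aged 16 to 20 h after egg laying were compared with embryos aged 12 to 16 h, gene by gene, by the RNA signal at transcription start sites. The comparison used 8 of the 36 libraries of a life-cycle series, the 4 hourly libraries of each period (16 to 17, 17 to 18, 18 to 19 and 19 to 20 h against 12 to 13, 13 to 14, 14 to 15 and 15 to 16 h). All 8 came from untreated embryos of the y; cn bw sp strain, which carries mutations in the body colour gene yellow, the eye colour genes cinnabar and brown, and speck. Eggs were laid in population cages over 1 h windows after pre-laying periods, and the embryos of a window were aged, dechorionated and frozen as a pool. The 24 embryo samples of the series were barcoded and sequenced as 1 multiplexed library, with reverse transcription run in parallel. The assay was RAMPAGE, which sequences the 5′ ends of capped RNA, so a value counts start-site reads and needs no scaling for gene length. Values are RPM, reads per 1000000 reads in genic start-site peaks. Genes with at least 2 RPM in 3 or more of the 8 libraries were tested, which were 9049 of 12698. No hour had a replicate. The libraries of a period are neighbouring stages, so each SD and SE below includes change within the period, and the p-values weigh the difference between periods against it.

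Late in embryogenesis the epidermis, the tracheae and the ends of the gut secrete the cuticle of the first larva. An outer envelope and epicuticle are laid down first, shaped into denticles and tracheal folds by apical membrane and matrix proteins, and a procuticle of chitin fibres and cuticle proteins is added beneath them. A pulse of the steroid hormone ecdysone in the middle of embryogenesis precedes this. Over the same hours muscles begin to contract, neurons become electrically active, and the gut prepares for feeding.

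Recovered reads numbered between 968765 and 10064820 per library at 16 to 20 h and between 897612 and 5119221 at 12 to 16 h. A floor of 3 reads corresponded to 3.10 RPM in the shallowest library of 16 to 20 h (19 to 20 h) and to 3.34 RPM in that of 12 to 16 h (12 to 13 h), and it covers counting error only. Of markers for other stages, the summed level of 4 genes of cellularising embryos (bnk, Z600, halo and nullo) was between 0 and 4.80 RPM at 16 to 20 h and between 0 and 4.46 RPM at 12 to 16 h, with nullo at 0 in all 8 libraries. Genes of unfertilised or young eggs (bcd, osk, gnu, dhd and smg) summed to between 213 and 386 RPM at 16 to 20 h and between 360 and 445 RPM at 12 to 16 h, most of it from smg. The level of bcd did not follow that sum, at 55.0, 53.4, 70.1 and 33.0 RPM in the hours of 16 to 20 h. In those of 12 to 16 h it was 11.1, 43.8, 24.4 and 32.6 RPM. The periods overlapped for bcd, osk, gnu and dhd. Genes of the feeding gut used as markers of hatched larvae (Jon25Bi, Jon99Fi and Amy-p) summed to between 62.4 and 802 RPM at 16 to 20 h and between 14.5 and 150 RPM at 12 to 16 h, none of them at 0. Whether older or hatched animals contribute to the 16 to 20 h collections was not tested. Markers of neurons, muscle and cuticle were present in all 8 libraries. The fat body marker apolpp was present too, at 187 to 325 RPM in the libraries of 16 to 20 h. In those of 12 to 16 h it had 399 to 967 RPM. The larval serum gene Lsp2 and the fat body gene Fbp1 were at or near 0.

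A gene was called where limma gave a Benjamini-Hochberg adjusted p below 0.05 and the change was at least 2-fold. On the deposited RPM scale 1613 of 9049 genes (17.8%) were called, 520 higher (5.75%) and 1093 lower (12.1%) at 16 to 20 h. The median log2 change of all genes tested was -0.54 on this scale. Dividing each library by a median-of-ratios factor brought that median to -0.01 and turned the balance of calls round. Then 1104 of 8994 genes were called, 782 higher (8.69%) and 322 lower (3.58%), so 70.8% of calls were higher after scaling, against 32.2% on the RPM scale. Called in the same direction on both scales were 841 genes (9.29%), of which 519 were higher (5.74%) and 322 lower (3.56%). A further 771 genes were lower in RPM alone and 263 higher after scaling alone, and no gene was called in opposite directions. Below, a gene is said to have risen or fallen where it was called on both scales, and any other call is named as such. In RPM, all 4 libraries of 16 to 20 h lay above all 4 of 12 to 16 h for 560 genes (6.19%), and below them for 1937 (21.4%). After scaling the balance was the other way, with 1027 above and 737 below. The number of calls depended on single libraries: leaving out the 13 to 14 h library gave 394 calls, the 18 to 19 h library 408, the 17 to 18 h library 698, the 12 to 13 h library 923, the 19 to 20 h library 958 and the 14 to 15 h library 1009. Of the 841 genes, 338 were also called without each of the 8 libraries in turn, 126 higher and 212 lower. The limma fits that left out 1 library, here and below, used RPM without scaling. How far calls after scaling depend on single libraries was not tested.

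The reads were held by few genes at 16 to 20 h. The 10 highest genes of a library took 17.5%, 22.8%, 16.0% and 16.1% of the reads in the 4 hours of 16 to 20 h, against 11.2%, 7.94%, 10.1% and 12.0% in those of 12 to 16 h. The number of genes that together held 50% of the reads was 157, 70, 139 and 192 at 16 to 20 h, against 290, 343, 305 and 309 at 12 to 16 h. The 2 ranges did not overlap for either measure. Genes that gained reads between the period means gained 37.3 percentage points in all, of which the 10 largest gains made 13.7 points, and 7 of these 10 genes had only a number for a symbol. Of the 841 genes called on both scales, 457 had a number or no symbol, 325 of those that rose and 132 of those that fell. They are counted here and not named. In bulk RNA of whole embryos, fewer cells of a type and less RNA per cell cannot be told apart.

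The summed level of cuticle protein families was highest at different hours. The CPR list held mainly genes for proteins with the chitin-binding Rebers-Riddiford domain, and the Vajk cuticle protein genes were counted with them. Its sums were 78530, 72648, 39261 and 16244 RPM in the hours of 16 to 20 h. In those of 12 to 16 h they were 2440, 3747, 14856 and 23389 RPM. The Lcp group of larval cuticle proteins summed to 23935, 36362, 34803 and 64841 RPM at 16 to 20 h, against 1016, 2277, 3175 and 4545 RPM at 12 to 16 h, with no overlap. The Tweedle family, cuticle proteins of insects first found through a body shape mutant, summed to 13064, 15960, 7407 and 8673 RPM at 16 to 20 h, against 665, 4496, 17352 and 34630 RPM at 12 to 16 h. Among these 8 libraries the Tweedle sum was thus highest at 15 to 16 h, the CPR sum at 16 to 17 h and the Lcp sum at 19 to 20 h. The highest hours of the Tweedle and CPR sums each rested on a single gene. TwdlF held 22276 RPM of the Tweedle sum at 15 to 16 h, and 679 RPM at 17 to 18 h. Cpr65Ea held 36728 RPM of the CPR sum at 16 to 17 h, and 21995 RPM at 17 to 18 h. With TwdlF and Cpr65Ea left out, both sums would be highest at 17 to 18 h.

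**Figure D1:**
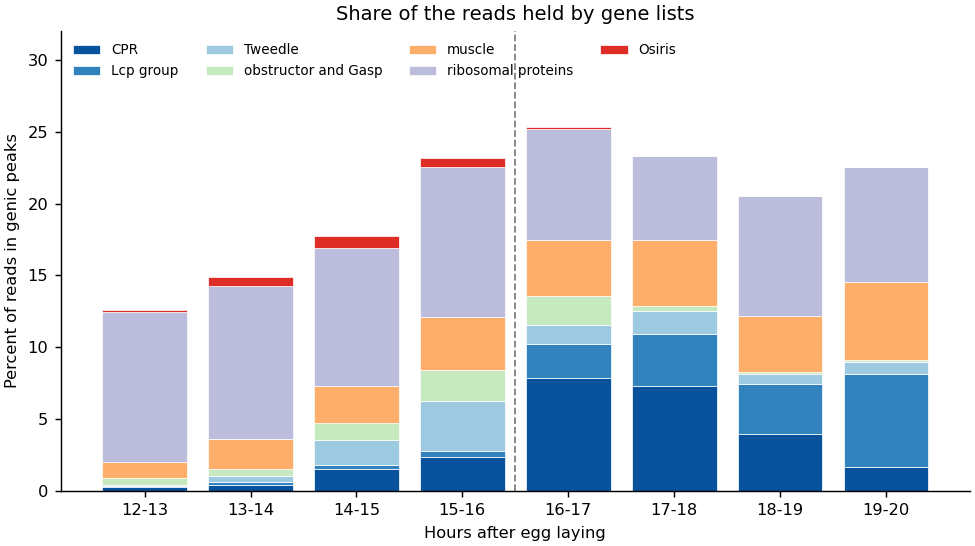
Percent of the reads in genic peaks (vertical axis) held by 7 gene lists in each hourly library (horizontal axis, hours after egg laying), as stacked bars, with a dashed line at 16 h. The CPR and Lcp segments are larger in every library right of the line than in 12 to 15 h, the Tweedle segment is largest at 15 to 16 h, and the Osiris segment all but disappears after 17 h.

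Most members of the Lcp group rose, and by more than those of any other list by their median. Of 14 members listed, 12 were tested, and 8 rose, with none called lower. On the log2 scale the median change was 3.34 in RPM and 3.94 after scaling. Lcp65Ag2, a structural protein of larval cuticle and the gene with the highest mean at 16 to 20 h, had 10897, 16561, 28623 and 31316 RPM in the 4 hours of that period, against 421, 1074, 2373 and 2468 RPM in the hours of 12 to 16 h. Its lowest value at 16 to 20 h was above its highest at 12 to 16 h, and the log2 change was 3.97 ± 0.62 (SE; adjusted p = 0.0049). Acp65Aa, a related gene named for adult cuticle, had 50.0, 72.0, 60.3 and 73.3 RPM at 16 to 20 h, against 0, 1.76, 7.36 and 6.06 RPM at 12 to 16 h, a log2 change of 4.17 ± 0.61 (adjusted p = 0.0037). It was nearly level across the later period and low throughout the earlier one. Lcp65Ag3, whose sequence is nearly identical to that of Lcp65Ag2, had 11162, 16919, 2628 and 28524 RPM at 16 to 20 h, against 477, 922, 246 and 1587 RPM at 12 to 16 h. Its values followed those of Lcp65Ag2 except in the 18 to 19 h and 14 to 15 h libraries, and no source used here says how reads were shared between such copies. Lcp65Af, Lcp65Ag1, Lcp65Ac and Lcp65Aa rose by log2 changes of 3.31 to 3.67, and Lcp4 by 1.35 ± 0.37 (adjusted p = 0.034). Without the 13 to 14 h or the 18 to 19 h library 6 members were called, and 6 were called without each library in turn.

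Among CPR genes the rise was broad, and the members reached their highest level at different hours. Of 82 members listed, 53 were tested, 27 rose and 1 more, Cpr49Af, was higher in RPM alone, while Cpr47Ef was lower in RPM alone. The median of the list, Vajk genes included, was a log2 change of 2.13 in RPM and 2.70 after scaling. Cpr5C had no read at 12 to 16 h, so its fold is not given, and with it set to the bound that 3 reads allow over the period the RPM median was 2.17. Edg78E, first described as a gene that depends on ecdysone, had 163, 303, 443 and 146 RPM at 16 to 20 h, against 0, 10.5, 33.7 and 17.8 RPM at 12 to 16 h. The periods did not overlap, and the log2 change of 4.68 ± 0.93 (adjusted p = 0.012) was the largest of the list. Cpr65Av was nearly level across the later hours, at 663, 685, 731 and 677 RPM at 16 to 20 h, against 2.23, 58.2, 27.9 and 142 RPM at 12 to 16 h (log2 change 4.53 ± 0.91, adjusted p = 0.013). Cpr78Cc, the most abundant member that rose at 17 to 18 h, had 6075, 10348, 6824 and 1923 RPM at 16 to 20 h, against 206, 220, 647 and 733 RPM at 12 to 16 h (log2 change 3.80 ± 0.61, adjusted p = 0.0055). Ccp84Ab and Vajk3 rose by log2 changes of 4.36 ± 0.89 and 4.25 ± 1.05 (adjusted p = 0.013 and 0.024).

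The most abundant CPR gene did not pass the test, and its highest hours lay next to the boundary of the periods. Cpr65Ea had 36728, 21995, 1905 and 1514 RPM at 16 to 20 h, against 831, 700, 5168 and 9612 RPM at 12 to 16 h. Its 2 later libraries of 16 to 20 h were below its 2 later ones of 12 to 16 h, and the log2 change was 1.58 ± 1.18 (adjusted p = 0.33). Cpr51A, with 11302, 6366, 3162 and 328 RPM at 16 to 20 h, against 600, 936, 1834 and 2961 RPM at 12 to 16 h, was also highest next to the boundary and was not called either (adjusted p = 0.39). Over all 24 embryo hours, the library from 16 to 17 h was the highest for 10 of the 53 tested members. The next 3 hours held the highest library of 8, 14 and 10 members, and 42 members in all were thus highest within 16 to 20 h. The count of rises was sensitive to single libraries. Without the 13 to 14 h or the 18 to 19 h library 7 members were called higher, and without the 17 to 18 h library 10.

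The Tweedle genes split. Of 26 members listed, 21 were tested, 6 rose and 14 passed on neither scale, and the median log2 change was 1.11 in RPM and 1.68 after scaling. TwdlN had 307, 1305, 1357 and 3947 RPM at 16 to 20 h, against 6.68, 38.7, 143 and 156 RPM at 12 to 16 h, a log2 change of 4.57 ± 0.99 (adjusted p = 0.016). TwdlB, TwdlP, Twdlalpha, TwdlL and TwdlM rose with it, by log2 changes between 3.30 and 3.71. TwdlF went the other way, with 869, 679, 86.7 and 56.8 RPM at 16 to 20 h, against 334, 3378, 12923 and 22276 RPM at 12 to 16 h. It was the highest gene of the 15 to 16 h library, and its log2 change of -4.18 ± 1.29 passed in RPM (adjusted p = 0.048) and was -3.61 after scaling (adjusted p = 0.12). Of the 21 members, 6 had their highest hour at 15 to 16 h and 14 in 16 to 20 h. The count rested on single libraries: without the 13 to 14 h library none was called, without 18 to 19 h 1, without 17 to 18 h 2, and without the 12 to 13 h or the 19 to 20 h library 4.

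**Figure D2:**
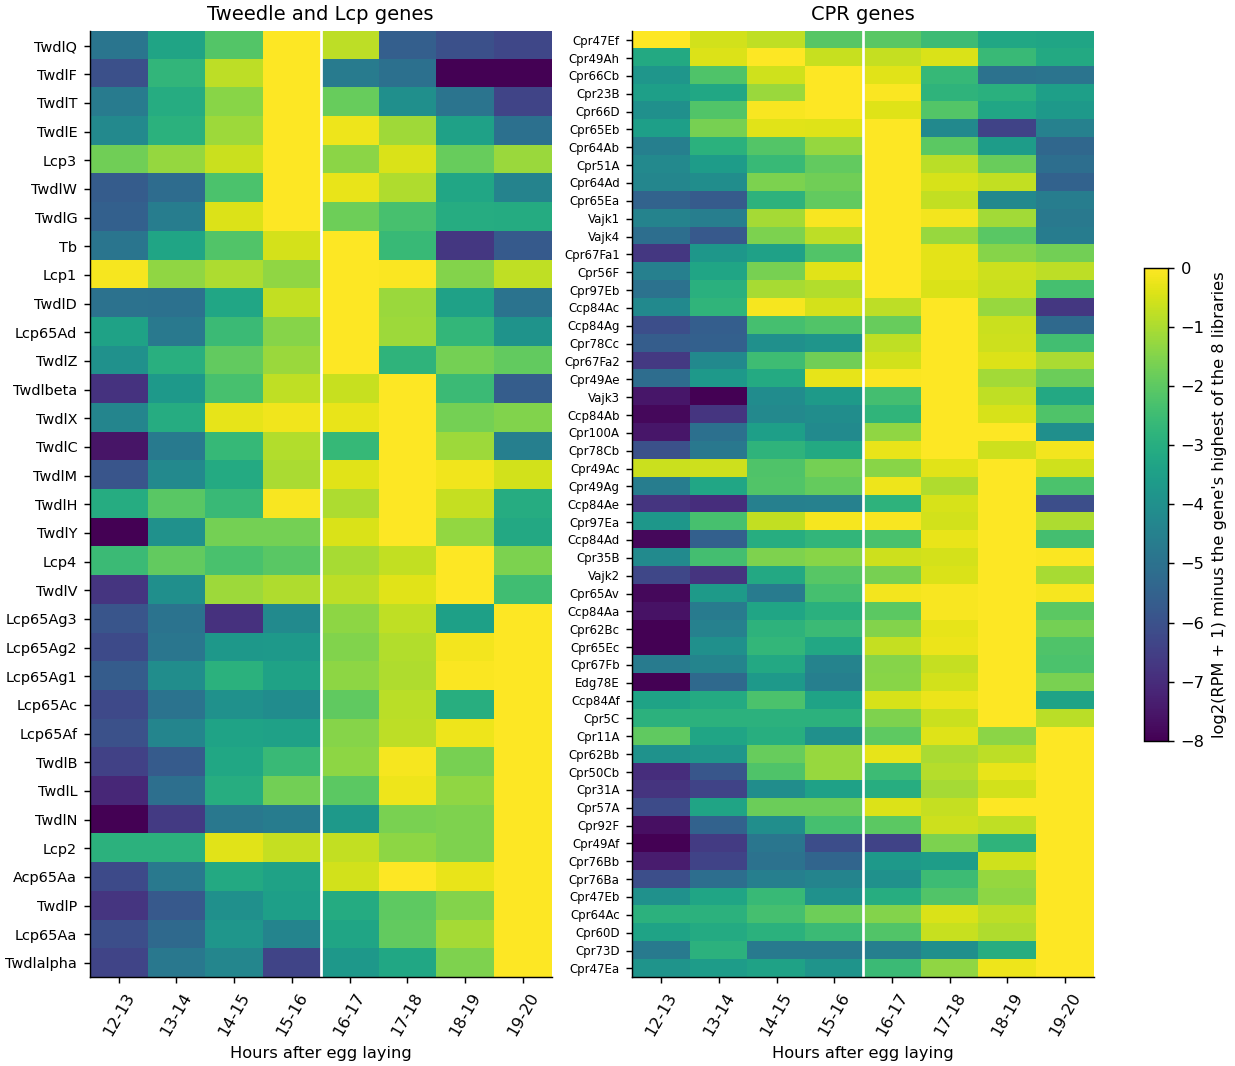
Heat map of the Tweedle and Lcp genes (left, 33 tested) and the CPR genes (right, 53 tested) in the 8 hourly libraries, in hour order with a white line at 16 h. Colour gives log2(RPM + 1) minus the gene's highest of the 8 libraries, and genes are sorted by that hour. For most genes the brightest cell lies from 15 to 16 h (TwdlF) through 16 to 17 h (Cpr65Ea) to 19 to 20 h (TwdlN, Lcp65Ag2). At least 1 CPR gene is brightest at 12 to 13 h and 1 at 14 to 15 h.

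Genes that make or organise chitin did not follow the cuticle proteins as a group. Of 25 members listed, 22 were tested, and the median log2 change was -0.28 in RPM and 0.29 after scaling, so its sign turned with the scale. The gene reb (rebuff), needed for chitin to be deposited, had 54.7, 49.8, 54.8 and 57.8 RPM at 16 to 20 h, against 8.91, 10.5, 13.6 and 24.6 RPM at 12 to 16 h (log2 change 1.94 ± 0.36, adjusted p = 0.0091). Idgf1, a chitinase-like growth factor, rose by 3.10 ± 0.58 (adjusted p = 0.0098). The epidermal chitin synthase kkv had 181, 70.2, 92.2 and 70.2 RPM at 16 to 20 h, against 195, 575, 511 and 263 RPM at 12 to 16 h. Its libraries did not overlap, and the log2 change of -1.87 ± 0.45 passed in RPM (adjusted p = 0.022) and was -1.29 after scaling (adjusted p = 0.074). The knk gene, whose product organises chitin at the cell surface, fell by 2.30 ± 0.53 on the log2 scale (adjusted p = 0.019). Cht10, a chitinase, and ChLD3, a chitin deacetylase-like protein, were lower in RPM alone. Among all genes tested 5.74% rose and 3.56% fell, and 2 rises and 1 fall among 22 lie near those shares. The 2 rises were called without each library in turn. The call of knk was lost without the 13 to 14, 17 to 18 or 18 to 19 h library.

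The obstructor group of secreted chitin-binding proteins was led by Gasp, whose product lines the tracheal tubes. Gasp had 19284, 3020, 1045 and 773 RPM at 16 to 20 h, against 4598, 4317, 11243 and 21043 RPM at 12 to 16 h. Its level was highest in the 2 libraries that meet at 16 h, and it was not called (log2 change -1.66 ± 0.94, adjusted p = 0.21). Of 6 members tested, obst-E alone was called on both scales, with 261, 276, 98.7 and 181 RPM at 16 to 20 h, against 4.46, 11.5, 53.8 and 43.2 RPM at 12 to 16 h (log2 change 3.24 ± 0.69, adjusted p = 0.016). That call was lost without the 13 to 14 h or the 17 to 18 h library. The genes obst-J and obst-H were higher after scaling alone.

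Enzymes of catecholamine metabolism, which supply the compounds that tan and harden cuticle, had few calls, in both directions. Of 18 tested, 2 rose and 1 fell, and Catsup, a regulator of tyrosine hydroxylase, was lower in RPM alone. Over all genes tested 5.74% rose and 3.56% fell, and counts this small lie near those shares. The dopa decarboxylase gene Ddc had 34.5, 23.4, 19.0 and 27.9 RPM at 16 to 20 h, against 0, 2.54, 6.97 and 14.0 RPM at 12 to 16 h (log2 change 2.55 ± 0.71, adjusted p = 0.035). Its paralogue amd, which cuticle formation also needs, had 9.94, 0, 1.44 and 4.13 RPM at 16 to 20 h, against 24.5, 118, 94.5 and 71.2 RPM at 12 to 16 h (log2 change -4.31 ± 0.73, adjusted p = 0.0069). In neither gene did the periods overlap. The dopachrome-converting enzyme yellow-f2 rose by 2.57 ± 0.60 (adjusted p = 0.021). The tyrosine hydroxylase gene ple, the first step of the pathway, had 187, 388, 732 and 1283 RPM at 16 to 20 h, against 136, 457, 961 and 659 RPM at 12 to 16 h, and was not called (adjusted p = 0.85). The call of amd held without each library in turn, that of yellow-f2 was lost without the 18 to 19 h library, and that of Ddc without any of 5 libraries (13 to 14 h and each hour of 16 to 20 h).

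By the rule for naming genes, the 15 largest falls among abundant genes included ImpE2, Osi6, Osi7, ect and ImpL1, and the other 10 had only a number or no symbol. Of the 15 largest rises 13 had only a number, and the named ones were Edg78E and TwdlN. All 30 were called on both scales.

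Osiris genes encode membrane proteins of insects, several of which shape the cuticle of the tracheae and of other surface structures. Of 20 members listed, 15 were tested, 10 fell, and Osi18 and Osi20 were lower in RPM alone. The median log2 change was -4.12 in RPM and -3.74 after scaling, the lowest of the 36 lists on both scales. Osi7 had 27.6, 13.2, 12.7 and 9.29 RPM at 16 to 20 h, against 592, 3645, 1201 and 1614 RPM at 12 to 16 h (log2 change -6.53 ± 0.53, adjusted p = 0.00061). Osi6 had 37.4, 8.40, 20.4 and 2.06 RPM at 16 to 20 h, against 714, 992, 4484 and 1869 RPM at 12 to 16 h (log2 change -6.98 ± 0.78, adjusted p = 0.0015). Every library of 16 to 20 h was far below every one of 12 to 16 h in both genes. Osi9, Osi14, Osi17 and Osi19 fell too, with log2 changes between -5.37 and -4.38. In the 16 to 17 h library several members had not yet reached the level of the next hours: Osi9 stood at 60.2 RPM there and at 2.40, 1.44 and 1.03 RPM in the following 3 libraries. Osi2, Osi5 and Osi15 were called on neither scale. All 15 members had their highest library of the 24 embryo hours in 12 to 16 h, 8 of them at 14 to 15 h. Without any 1 library at least 9 members were called, and 9 were called in every such fit.

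Zona pellucida domain proteins of the apical surface, which tie the extracellular matrix to the membrane and shape denticles and hairs, also fell in part. Of 10 members tested 5 fell, namely tyn, nyo, neo, mey and m. The tyn gene (trynity) had 13.3, 17.4, 9.85 and 5.16 RPM at 16 to 20 h, against 1466, 1469, 357 and 87.8 RPM at 12 to 16 h (log2 change -5.47 ± 0.81, adjusted p = 0.0039). It was highest in the first hours of the earlier period. The nyo gene had 1.19, 0, 0.721 and 1.03 RPM at 16 to 20 h, against 139, 162, 85.2 and 10.2 RPM at 12 to 16 h (log2 change -5.36 ± 0.76, adjusted p = 0.0032). In contrast, dpy, which encodes a giant matrix protein that anchors epidermis to cuticle, had 62.3, 54.0, 92.7 and 60.9 RPM at 16 to 20 h, against 82.4, 44.1, 39.5 and 74.9 RPM at 12 to 16 h, with overlap and no call (adjusted p = 0.68). The pio gene, with 54.0, 169, 258 and 297 RPM at 16 to 20 h, against 56.8, 89.7, 49.2 and 84.8 RPM at 12 to 16 h, was not called (adjusted p = 0.099 in RPM and 0.054 after scaling). Without the 13 to 14 h library 3 of the 5 falls were called, the calls of neo and m being lost, and neo was also lost without 17 to 18 h.

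Further surface and lumen genes, chosen after their values were seen, had the same course. The ect gene (ectodermal), which the naming rule holds, had 238, 31.8, 43.5 and 20.6 RPM at 16 to 20 h, against 3014, 6602, 6523 and 3252 RPM at 12 to 16 h (log2 change -6.43 ± 0.67, adjusted p = 0.00097). The zona pellucida genes dyl (dusky-like) and dy (dusky) fell, with log2 changes of -5.10 ± 0.68 and -4.43 ± 0.50 (adjusted p = 0.0027 and 0.0015). The tracheal gene apn and the bristle gene pwn fell, with log2 changes of -4.80 ± 0.88 and -4.59 ± 0.57 (adjusted p = 0.0091 and 0.0023). All 5 were called on both scales and without each library in turn.

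Ecdysone nuclear receptor and response genes were called in part. Of 19 members listed, 17 were tested and 4 fell on both scales: ImpE2, ImpL1, ImpE1 and the nuclear receptor Hr3. ImpE2 had 43.1, 14.4, 18.0 and 6.19 RPM at 16 to 20 h, against 5452, 5658, 2109 and 680 RPM at 12 to 16 h, and its log2 change of -7.21 ± 0.72 (adjusted p = 0.00097) was the largest among the named falls. ImpL1 had 19.6, 12.6, 18.5 and 2.06 RPM at 16 to 20 h, against 1269, 2816, 991 and 64.7 RPM at 12 to 16 h (log2 change -5.93 ± 1.04, adjusted p = 0.0079). Both were already lower at 15 to 16 h than in the hours before. ImpE1 and Hr3 fell, with log2 changes of -5.06 ± 0.52 and -3.90 ± 0.76 (adjusted p = 0.00097 and 0.011). ImpL2, cloned in the same way as a hormone-inducible secreted protein, had 83.8, 64.2, 31.5 and 72.3 RPM at 16 to 20 h, against 138, 86.5, 101 and 153 RPM at 12 to 16 h, and was not called (adjusted p = 0.085). The receptor gene EcR had 166, 206, 222 and 61.9 RPM at 16 to 20 h, against 225, 159, 89.9 and 340 RPM at 12 to 16 h (adjusted p = 0.67), and the sign of its log2 change turned with the scale, at -0.30 in RPM and 0.27 after scaling. For ftz-f1, a receptor that follows the ecdysone pulse, the values were 457, 282, 254 and 157 RPM at 16 to 20 h, against 78.0, 114, 337 and 340 RPM at 12 to 16 h (adjusted p = 0.43). Hr39 was higher after scaling alone and Ldh lower in RPM alone. The 4 falls were called without each library in turn.

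**Figure D3:**
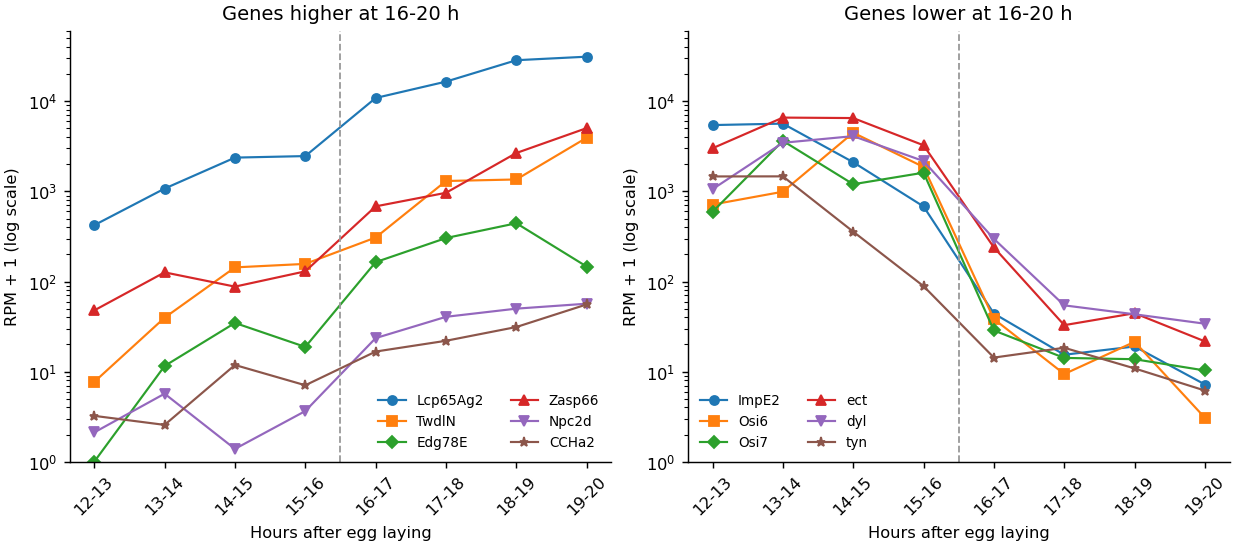
RPM + 1 on a log axis against hours after egg laying for 6 genes that rose (left) and 6 that fell (right), 1 point per hourly library, with a dashed line at 16 h. Lcp65Ag2 climbs to 31316 RPM at 19 to 20 h, while ImpE2 drops across the line to 43.1 RPM at 16 to 17 h. In none of the 12 genes do the libraries of the 2 periods overlap.

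The secretory pathway, which exports cuticle and matrix proteins, had lower RPM across most of its members, but few calls survived scaling. Of 39 members listed, 38 were tested and 22 were lower in RPM, of which 4 fell on both scales: CrebA, Sec63, Sec61alpha and TRAM. On the log2 scale the median change was -1.39 in RPM and -0.81 after scaling. CrebA, a transcription factor that raises secretory capacity in epidermis and salivary gland, had 25.7, 13.8, 15.6 and 24.8 RPM at 16 to 20 h, against 194, 145, 101 and 32.6 RPM at 12 to 16 h (log2 change -2.29 ± 0.52, adjusted p = 0.018). Sec63, part of the translocon of the endoplasmic reticulum, had 162, 72.6, 87.0 and 93.9 RPM at 16 to 20 h, against 502, 484, 296 and 415 RPM at 12 to 16 h (log2 change -2.06 ± 0.34, adjusted p = 0.0063). The periods did not overlap in either gene. The translocon channel Sec61alpha and the translocation protein TRAM fell too, with log2 changes of -1.73 ± 0.35 and -1.58 ± 0.31 (adjusted p = 0.013 and 0.012). By RPM, none of the 38 had its highest embryo hour after 16 h, and 29 had it between 8 and 16 h. These hours were not looked at after scaling. The chaperone of the same compartment Hsc70-3 had 106, 75, 38.7 and 87.7 RPM at 16 to 20 h, against 475, 339, 221 and 189 RPM at 12 to 16 h, and fell by 1.97 ± 0.41 on the log2 scale (adjusted p = 0.014). Without the 13 to 14 h library 2 of the RPM calls of the list were left, without 18 to 19 h 3, without 17 to 18 h 5, without 12 to 13 h 7, without 19 to 20 h 8 and without 14 to 15 h 10. In these RPM fits Sec63 and TRAM held throughout. After scaling, TRAM passed with a log2 change of -1.02 (adjusted p = 0.042).

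Sarcomere genes summed to 39611, 46252, 38669 and 54713 RPM at 16 to 20 h, against 11260, 21015, 25785 and 37090 RPM at 12 to 16 h, so every later library was above every earlier one. Of 28 members listed, 23 were tested, 5 rose, and RyR and Strn-Mlck were lower in RPM alone. The list's median was a log2 change of 0.83 in RPM and 1.40 after scaling. Zasp66, a protein of the Z-disc that anchors actin filaments, had 682, 965, 2670 and 5047 RPM at 16 to 20 h, against 46.8, 125, 86.8 and 129 RPM at 12 to 16 h (log2 change 4.25 ± 0.62, adjusted p = 0.0035). Mf, the thick filament protein myofilin, had 1812, 1747, 2648 and 5239 RPM at 16 to 20 h, against 121, 340, 602 and 1120 RPM at 12 to 16 h (log2 change 2.65 ± 0.64, adjusted p = 0.023). Both were highest at 19 to 20 h. Tropomyosin Tm2 and the troponin C genes TpnC25D and TpnC73F rose by log2 changes of between 1.52 and 2.13 (adjusted p between 0.036 and 0.05). Of 17 myogenic and myoblast fusion genes tested, the integrin gene if (inflated) was higher after scaling alone. Lower in RPM were 4 of the 17, against 12.1% of all genes tested. Among the lower ones the fusion gene sing fell by 2.80 ± 0.60 on the log2 scale (adjusted p = 0.016), a call lost without the 18 to 19 h library. Without the 13 to 14, 18 to 19 or 19 to 20 h library Zasp66 was the only sarcomere gene still called higher, and without 12 to 13, 14 to 15 or 17 to 18 h there were 2.

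Few genes of mature neurons passed the test. Of 30 synaptic vesicle and active zone genes tested 1 rose, and of 30 ion channel and receptor genes 3 rose, with medians of 0.25 and 0.51 in RPM and 0.81 and 1.05 after scaling. A further 2 genes of each list were higher after scaling alone. Of all genes tested 5.74% rose, so these counts lie around the share over all genes. The vesicle protein gene nSyb had 649, 815, 638 and 962 RPM at 16 to 20 h, against 253, 333, 668 and 768 RPM at 12 to 16 h, with overlap (adjusted p = 0.20). The active zone gene brp, with 541, 819, 670 and 923 RPM at 16 to 20 h, against 188, 521, 973 and 904 RPM at 12 to 16 h, was not called either (adjusted p = 0.56). Irk2, an inward rectifier potassium channel, had 14.2, 25.8, 27.1 and 27.9 RPM at 16 to 20 h, against 0, 1.37, 4.65 and 7.57 RPM at 12 to 16 h (log2 change 2.87 ± 0.62, adjusted p = 0.017). The nicotinic receptor subunit nAChRalpha6, the potassium channel KCNQ and the monoamine transporter Vmat rose by 2.30 ± 0.55, 1.39 ± 0.42 and 1.40 ± 0.43 (adjusted p = 0.022, 0.046 and 0.046). These 4 calls were each lost without the 13 to 14 h or the 18 to 19 h library, and in 3 of them without others too.

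Several neuropeptide and peptide hormone genes rose. Of 43 members listed, 27 were tested, 8 rose, and the insulin-like genes Ilp4 and Ilp6 were lower in RPM alone. The median log2 change was 0.92 in RPM and 1.37 after scaling. CCHa2, a peptide of gut endocrine cells and fat body that acts on insulin-producing cells, had 15.7, 21.0, 30.3 and 54.7 RPM at 16 to 20 h, against 2.23, 1.56, 10.8 and 6.06 RPM at 12 to 16 h (log2 change 2.46 ± 0.56, adjusted p = 0.019). The allatostatin AstC had 42.9, 17.4, 18.3 and 72.3 RPM at 16 to 20 h, against 2.23, 3.91, 13.2 and 8.71 RPM at 12 to 16 h (log2 change 2.26 ± 0.59, adjusted p = 0.029). In both genes the periods did not overlap. The adipokinetic hormone Akh, the diuretic hormones Dh44 and Dh31, AstA, Capa and the proctolin gene Proc rose by log2 changes of between 1.44 and 2.28. Of the 27 genes, 18 had their highest embryo hour in 20 to 24 h and 7 in 16 to 20 h. The 8 rises rested on single libraries: none was called without the 13 to 14 h or the 18 to 19 h library, 3 without 12 to 13 h, 4 without 14 to 15 h or 19 to 20 h and 5 without 17 to 18 h.

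Some genes of neural stem cells and of young neurons fell. Of 23 tested 8 were lower in RPM and 15 were called on neither scale. The median log2 change was -1.18 in RPM and -0.69 after scaling. On both scales robo2, dpn and fne fell. Among all genes tested 12.1% were lower in RPM and 3.56% fell. The Slit receptor robo2, a guidance molecule of growing axons and tracheae, had 130, 35.4, 50.7 and 72.3 RPM at 16 to 20 h, against 417, 480, 339 and 315 RPM at 12 to 16 h (log2 change -2.56 ± 0.40, adjusted p = 0.0053). The neuronal RNA-binding protein gene fne had 16.1, 13.2, 13.9 and 15.5 RPM at 16 to 20 h, against 55.7, 73.3, 63.1 and 62.5 RPM at 12 to 16 h (log2 change -2.04 ± 0.28, adjusted p = 0.0029). Values within each period were close together, and the periods were far apart. The neuroblast transcription factor dpn fell by 2.15 ± 0.44 (adjusted p = 0.013). These 3 were called without each library in turn, and no other member was. Of 16 glial genes tested, the glutamine synthetase gene Gs2 rose, with 59.6, 60.6, 138 and 210 RPM at 16 to 20 h, against 15.6, 26.4, 14.3 and 45.8 RPM at 12 to 16 h (log2 change 2.10 ± 0.51, adjusted p = 0.023), and this was lost without the 13 to 14 h, the 18 to 19 h or 3 other libraries. Among all genes tested the share that rose was 5.74%, and 1 of 16 lies near it. The glial list had a median log2 change of -0.34 in RPM and 0.23 after scaling, and wrapper was lower in RPM alone. Across the glial list 7 log2 changes were positive and 9 negative in RPM, and after scaling 3 members were called higher and none lower. In RPM, the 3 glial markers repo, wrapper and moody summed to between 33.0 and 81.1 at 16 to 20 h. At 12 to 16 h they summed to between 91.4 and 121 RPM. Most of each sum came from moody, and whether the sums differ after scaling was not tested.

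Part of the digestive list rose, most of these genes from low levels. Beside digestive enzyme genes the list holds the Npc2 genes, whose products are not enzymes, so its counts are not of enzymes alone. Of 64 members listed, 39 were tested, 12 rose and none was called lower, with a median log2 change of 1.80 in RPM and 2.19 after scaling. Npc2d, of a family of sterol-binding proteins, had 22.6, 39.6, 49.0 and 55.7 RPM at 16 to 20 h, against 1.11, 4.69, 0.387 and 2.65 RPM at 12 to 16 h (log2 change 3.86 ± 0.50, adjusted p = 0.0024). The serine protease gene Ser6 had 18.5, 19.2, 54.3 and 110 RPM at 16 to 20 h, against 0, 3.32, 4.65 and 3.79 RPM at 12 to 16 h (log2 change 3.59 ± 0.70, adjusted p = 0.011). Both were above all earlier libraries at each hour of 16 to 20 h. The protease genes Jon65Aiv, yip7, Jon25Biii and Jon65Aiii rose by log2 changes of between 2.82 and 3.78. The trypsin genes alphaTry and etaTry and the amylase gene Amy-p rose by log2 changes of between 2.11 and 2.55, and zetaTry had no read at 12 to 16 h. The trypsins lie side by side and are alike in sequence, so reads may be split between them. Of the 39 genes, 25 had their highest embryo hour in 20 to 24 h. Amy-p is also among the markers of hatched larvae given above, and whether older animals contribute to these values was not tested. Without the 18 to 19 h library 5 were called, without 13 to 14 h 6, and without 12 to 13 h or 19 to 20 h 7. Other fits called more, with 19 by edgeR, 22 in 1 fit of the 24 embryo libraries, which also called 2 lower, and 25 by DESeq2.

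Of 21 odorant-binding and chemosensory receptor genes tested, 5 rose, 1 fell and 4 more were lower in RPM alone. Among all genes tested 5.74% rose, 3.56% fell and 12.1% were lower in RPM, and the 1 fall lies near its share. Obp56d had 191, 464, 626 and 653 RPM at 16 to 20 h, against 14.5, 30.9, 62.4 and 43.5 RPM at 12 to 16 h (log2 change 3.67 ± 0.51, adjusted p = 0.0031). Its neighbour Obp56a had 26.1, 8.40, 13.2 and 25.8 RPM at 16 to 20 h, against 644, 528, 203 and 43.9 RPM at 12 to 16 h (log2 change -3.74 ± 0.76, adjusted p = 0.013). These genes of 1 cluster were thus called in opposite directions, with no overlap between the periods in either, and both were called without each library in turn. Obp83cd, Obp56h and Obp56b also rose. Obp57d has the same value as Cpr57A in all 8 libraries, so its call is that of 1 shared signal. Without the 13 to 14 h or the 18 to 19 h library 2 of the 5 were called.

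Smaller groups had a few members called. Over all genes tested 5.74% rose, 3.56% fell and 12.1% were lower in RPM. The counts of replication and of cytochrome P450 and glutathione transferase genes that rose or fell on both scales lie near the first 2 shares. Replication genes lower in RPM, 9 of 37, made up more than the share of 12.1%. Of 9 immune genes tested, the peptidoglycan-degrading amidase PGRP-LB rose, with 27.9, 42.0, 111 and 227 RPM at 16 to 20 h, against 4.46, 9.38, 13.2 and 17.8 RPM at 12 to 16 h (log2 change 2.76 ± 0.64, adjusted p = 0.020), PGRP-LF rose and TotE fell, with calls lost without the 13 to 14 h library. Of 11 basement membrane genes, the laminin alpha chain genes LanA and wb fell, with log2 changes of -1.64 ± 0.31 and -2.19 ± 0.45 (adjusted p = 0.010 and 0.014). Among 18 Hox and segment polarity genes, the Hedgehog receptor ptc had 55.9, 37.2, 42.0 and 24.8 RPM at 16 to 20 h, against 260, 239, 180 and 95.0 RPM at 12 to 16 h (log2 change -2.20 ± 0.40, adjusted p = 0.0085). It fell together with slp1, and 5 others were lower in RPM alone. Of 37 replication and cell cycle genes 9 were lower in RPM, and the helicase subunit genes dpa and Mcm5 fell on both scales, with log2 changes of -2.47 ± 0.41 and -1.87 ± 0.43 (adjusted p = 0.0065 and 0.020). Of 60 cytochrome P450 and glutathione transferase genes 4 rose and 2 fell, and of the rises none was called without the 12 to 13, 13 to 14, 14 to 15, 18 to 19 or 19 to 20 h library, nor was any fall without 13 to 14 h. In septate junctions (16 tested), V-ATPase (16), fat body proteins (8), ecdysone synthesis (4) and maternal genes (12) no member was called on both scales. The lists of phototransduction (6 tested), blood cells (11) and heat shock proteins (10) had 1 fall each, in ninaD, NimB1 and Hsc70-3, and all 3 calls were lost without the 13 to 14 h library. The calls of LanA, ptc and dpa held without each library in turn, and those of wb, slp1, Mcm5 and PGRP-LB were lost without the 13 to 14 h or the 18 to 19 h library. TMM scaling also ended the call of slp1.

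Housekeeping lists had few calls that held on both scales. Among all genes tested 12.1% were lower in RPM and 3.56% fell, and the counts below lie near or under those shares. The 65 respiratory chain genes tested had a median of -0.03 in RPM and 0.55 after scaling, and none was called in RPM. The 80 ribosomal protein genes had a median of -0.67 in RPM and -0.09 after scaling, with 6 lower in RPM and none called after scaling. Of 30 proteasome subunits 5 were lower in RPM and 1, Prosalpha7, on both scales, and of 13 glycolytic enzymes tested 1 was lower in RPM alone. The sign of such a list's median therefore turned with the scale in the respiratory chain.

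**Figure D4:**
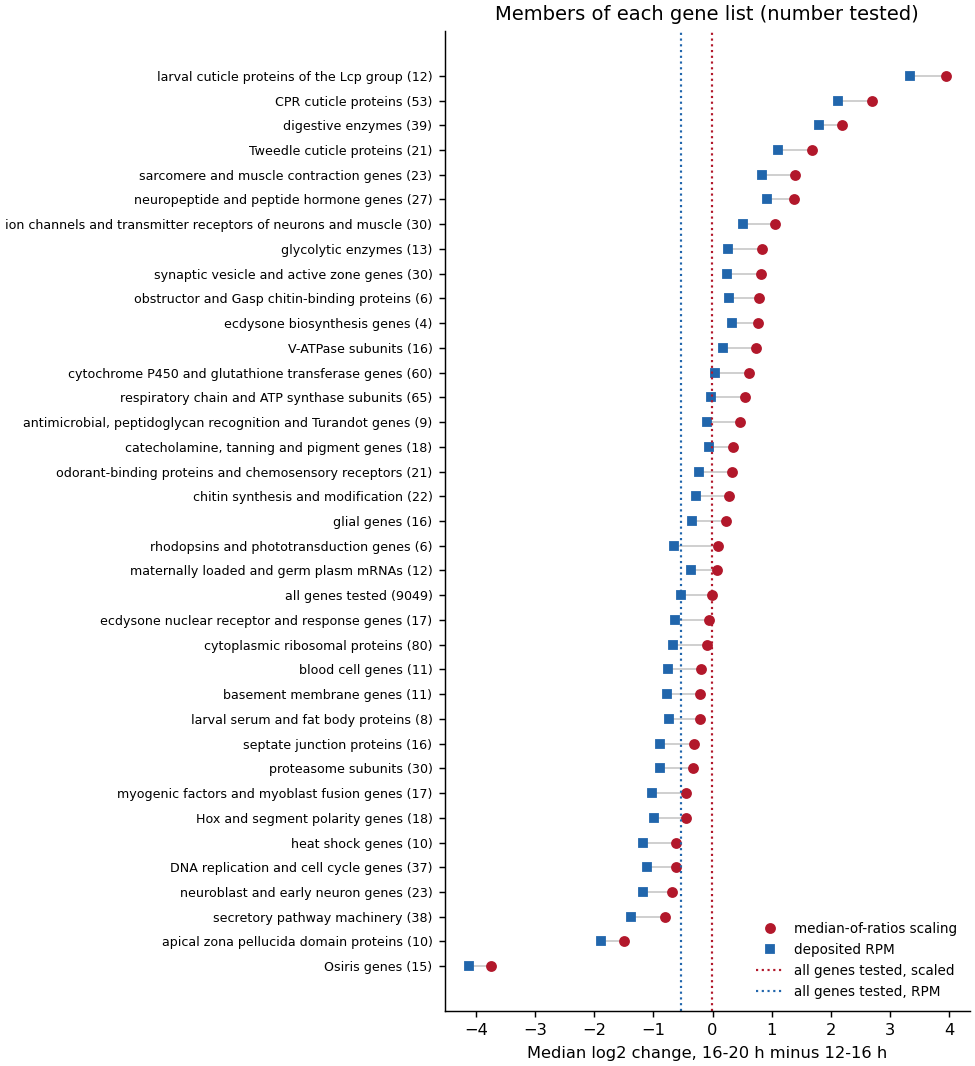
Median log2 change, 16 to 20 h minus 12 to 16 h, of the tested members of each of 36 gene lists (number tested in brackets), with squares for the deposited RPM and circles after median-of-ratios scaling, and dotted lines for all 9049 genes. The Lcp group stands highest (3.34 and 3.94) and the Osiris genes lowest (-4.12 and -3.74), and every list shifts to the right after scaling.

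Some genes called in 1 direction lay side by side. On dm3 there were 34 runs of at least 3 neighbouring genes in the table that were called the same way on both scales. Some runs hold fewer separate signals than genes, such as the run on 2R with Cpr57A and Obp57d, which share 1 signal. On chromosome 3L between 6124076 and 6133086 the run of Lcp and CPR genes with Lcp65Ag3 and Cpr65Av at its ends summed to a mean of 39703 RPM at 16 to 20 h, against 2684 RPM at 12 to 16 h. On 3L between 21288492 and 21293821, Cpr78Cb, Edg78E and Cpr78Cc summed to 6672 RPM at 16 to 20 h, against 477 RPM at 12 to 16 h. The Tweedle genes TwdlM, TwdlP, TwdlB, TwdlL and TwdlN on 3R between 22444723 and 22457728 summed to 5082 RPM at 16 to 20 h, against 684 RPM at 12 to 16 h. In the other direction, Osi6, Osi7, Osi9 and Osi12 on 3R between 2060373 and 2104263 summed to 49.2 RPM at 16 to 20 h, against 4091 RPM at 12 to 16 h. No test was made of whether neighbours are called together more often than other genes.

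Start sites were described from the authors' peak list, which covers the whole series. The main peak of the 519 genes that rose had a median width of 56 bases, that of the 322 genes that fell 96 bases and that of all genes tested 98 bases. Peaks of at most 20 bases made up 15.8% of the genes that rose, 4.7% of those that fell and 6.1% of all tested. A single peak was listed for 68.6% of the genes that rose, 41.3% of those that fell and 48.9% of all. Width is measured over reads pooled from all stages, so it can move with a gene's level.

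Across the 24 embryo hours, the genes that rose were late genes. Of the 519, 251 (48.4%) had their highest library in 16 to 20 h and 258 (49.7%) in 20 to 24 h. Of the 322 that fell, 169 (52.5%) reached their highest value within 12 to 16 h. For 74 of them (23.0%) it came during 8 to 12 h, for 40 (12.4%) during 4 to 8 h, and for 38 (11.8%) before 4 h. Among all genes tested the share was 10.2% for 16 to 20 h and 17.0% for 12 to 16 h. The hours of the compared periods are part of the contrast, so this is a description. The highest library was taken in RPM, and libraries differ in depth. Of all genes tested 529 were highest at 19 to 20 h (968765 reads) and 123 at 16 to 17 h (10064820 reads). Of the 519 that rose, 138 were highest at 19 to 20 h. How far such counts follow depth was not tested.

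**Figure D5:**
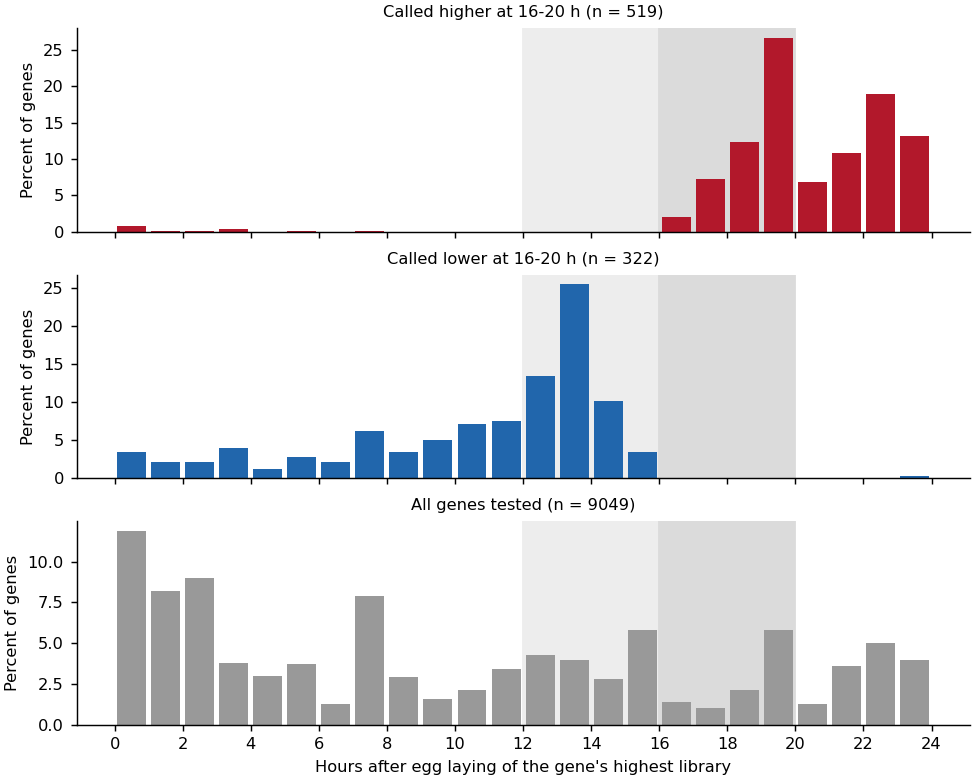
Percent of genes (vertical axis) by the hour of their highest library among the 24 embryo hours (horizontal axis), for the 519 genes that rose (top), the 322 that fell (middle) and all 9049 tested (bottom), with 16 to 20 h shaded darker than 12 to 16 h. The genes that rose peak from 16 h onward, and those that fell spread from 0 to 16 h with most at 13 to 14 h.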

How the data were processed

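RPM values per gene were made and deposited by the authors, and each library's column sums to 1000000. The submitters' processing notes name STAR, Cufflinks and the dm3 genome build, without their roles. The authors' deposited peak list gives start-site peaks on dm3 and a score for each peak. No source used here explains the score, which served only to choose each gene's main peak. Symbols were matched for 12088 of 12698 gene identifiers.

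Values were tested as log2(RPM + 1), so changes of low genes are understated, with limma 3.58.1 in R 4.3.3 (empirical Bayes with a mean-variance trend, 6 residual degrees of freedom, Benjamini-Hochberg adjustment over all genes tested). All adjusted p-values in the text come from that fit or, where stated, from the same fit after median-of-ratios scaling. Low values are whole multiples of 1 read, and 100.0% of values gave whole reads within 0.01 of a read. The step of the 16 to 17 h library lay close to a round decimal and is less certain. Alternatives used edgeR 4.0.16 and DESeq2 1.42.0 on those reads. The labels call each hour a separate collection, and the p-values measure only the spread between these pools.

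The genes to name were the 15 largest changes in each direction among genes called, without overlap and with a mean of at least 50 RPM in the higher period. They also included up to 4 called members in each direction of each of 36 lists with the list's most abundant member, and the 10 highest genes of each period. Symbols that are only a number were not named. List members named beyond this (such as Cpr51A, EcR, ftz-f1, dpy, pio, nSyb, brp and Osi2), and dyl, dy, apn and pwn, were chosen after their values were seen. The members and lists were chosen with earlier results of these data known. Sequences were not used here.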

Additional observations from a re-analysis of the deposited data

Results flagged for a closer look

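Libraries far from the other 3 of their period were looked for in each named gene, by the gap to the nearest value relative to the whole range, set against Dixon's 95% critical value. Of 332 sets of 4 libraries 28 passed, where chance flags about 1 in 20. At 16 to 20 h, 15 of the 20 were high values in the 16 to 17 h library, the youngest of that period. There Gasp stood at 19283.5 RPM, Osi9 at 60.21, Osi15 at 212.52, Osi18 at 11.72, Osi19 at 15.0 and Osi20 at 198.22 RPM. In the same library ect stood at 237.96, dyl at 296.58, apn at 22.65 and pwn at 15.1 RPM. The lower genes sha (3.58), PH4alphaSG1 (6.95), dy (0.79), m (0.3) and wus (0.3 RPM) stood out there as well. The 16 to 17 h library is the one nearest in age to 12 to 16 h, and Gasp and Osi15 were called on neither scale. Irk2 (14.21 RPM) and Prosalpha7 (5.96 RPM) were low in the 16 to 17 h library.

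Elsewhere at 16 to 20 h, obst-H was high at 18 to 19 h (29.31 RPM), and Idgf1 (46.45 RPM) and MtnB (19.61 RPM) at 19 to 20 h. At 12 to 16 h, Osi17 (104.12 RPM), PH4alphaSG1 (76.77 RPM) and Obp56b (0.2 RPM) were high at 13 to 14 h. RyR (56.17 RPM), etaTry (1.16 RPM) and MtnB (0.39 RPM) were high at 14 to 15 h, Jon65Aiii (67.75 RPM) at 15 to 16 h and Dh44 (1.11 RPM) at 12 to 13 h. Values near 1 RPM or below rest on a few reads.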

How the results depend on the processing

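Scaling decided the balance of directions. On the RPM scale 1613 genes were called, and the alternatives gave between 1031 (edgeR on recovered reads) and 2453 (1 fit of the 24 embryo libraries), with 1059 under TMM scaling, 1104 under median-of-ratios scaling and 1543 by DESeq2. Genes called higher numbered 520 in RPM, 782 under median-of-ratios scaling, 784 in the 24-library fit, 1066 by DESeq2 and 826 by edgeR without the 16 to 17 h library. Genes called lower numbered 1093 in RPM, 322 under either scaling, 303 by edgeR, 406 by edgeR without 16 to 17 h, 477 by DESeq2 and 1669 in the 24-library fit. Genes with all later libraries above all earlier ones numbered 560 in RPM, 1027 under median-of-ratios scaling and 976 without the 2 libraries that meet at 16 h, and genes below numbered 1937, 737 and 3225. Leaving out 1 library at a time gave between 394 and 2006 calls, 136 to 578 of them higher and 237 to 1428 lower, between 55 and 235 calls in the lists against 209, and 585 to 794 genes above and 1994 to 2669 below without overlap. The cause of these shifts was not tested. Of 140 named genes called in RPM, none reversed its direction under these alternatives, and 64 were called without each library in turn. The pseudocount, the filter on low values and a total without the cuticle lists kept the total counts of calls, higher and lower, within 1.5 times. Counts of single lists moved more. Secretory genes called lower numbered 22 in RPM, 14 without the cuticle lists in the total, 4 under either scaling or by edgeR and 7 by DESeq2 or by edgeR without 16 to 17 h. Sarcomere genes called higher numbered 5, but 3 at pseudocount 0.5, with no filter or in the 24-library fit, and 11 by DESeq2. Neuropeptide genes called higher numbered 8, but 5 with at least 10 RPM required and 14 by DESeq2. Genes of the digestive list called higher numbered 12, but 23 by edgeR without 16 to 17 h. The edgeR fit without 16 to 17 h, and the overlap counts under other settings, were chosen after seeing the data. No paired analysis was possible because the labels carry no replicate numbers that tie a later library to an earlier one. The promoter motif alternative was not run, since no genome sequence was used here. Depth limits genes below about 3 RPM, which is 3 reads in the shallowest libraries, and no hour was sampled again, so stage and library cannot be told apart within a period.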

Other observations

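Gene families outside the lists were chosen after their values were seen, so their counts are descriptions. In the mevalonate pathway, which makes the precursors of isoprenoids, 4 of 7 genes tested fell. Hmgs, the synthase at its entry, had 141, 10.2, 69.9 and 54.7 RPM at 16 to 20 h, against 861, 683, 273 and 704 RPM at 12 to 16 h (log2 change -3.54 ± 0.69, adjusted p = 0.011). Mvk, Mvd and Pmvk, the kinases and the decarboxylase that follow, fell with log2 changes between -2.52 and -2.18, and Fpps, Idi and qm were not called. Mvk has the same value as another gene of the table in all 8 libraries, so its call is that of 1 shared signal. All 4 inducers of programmed cell death of one genomic region fell, and hid had 8.05, 4.2, 4.08 and 12.4 RPM at 16 to 20 h, against 110, 52.9, 34.5 and 23.8 RPM at 12 to 16 h. Its neighbours skl, grim and rpr had log2 changes of -2.99, -2.14 and -1.74. Of 7 genes grouped for actin, denticles and bristles, 6 fell. Among these, f (forked), sha (shavenoid) and sn (singed) had log2 changes of -4.44, -4.13 and -2.47, and ovo was not called. The count includes wus, at -3.38, and no source used here ties that gene to denticles or bristles.

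Of 4 metallothioneins tested, which bind metals, 3 rose. MtnD had 31.4, 33.6, 77.6 and 164 RPM at 16 to 20 h, against 3.34, 8.60, 7.36 and 9.84 RPM at 12 to 16 h (log2 change 2.98), and MtnE and MtnB rose by 2.88 and 2.29. Of 6 acyl-CoA-binding proteins 4 rose, and Acbp4 had the largest log2 change of them, 2.93. Of 9 mucins tested 5 rose, with Muc26B at a log2 change of 3.49. Of 4 prolyl 4-hydroxylase alpha subunits 3 fell, with log2 changes of -3.58 in PH4alphaSG1 and -2.55 in both PH4alphaEFB and PH4alphaSG2.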
